A study of Mus musculus with 16 samples.

Results

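Endothelial cells are recognised by a small set of surface and secreted proteins, and 10 of the genes that encode them were followed across Notch1 genotypes in the mouse embryo. They were chosen by name: Cdh5, Cldn5, Esam and Pecam1 for the junctions between endothelial cells, Tie1 and Tek for receptors, Egfl7 for a secreted factor, and Emcn, Cd34 and Icam2 for surface glycoproteins. For each gene the deposited values of its transcripts were summed, and the 10 genes stand beside 22096 gene symbols in all. RNA came from cells positive for CD31 that had been sorted from whole embryos at embryonic day 9.5 with fluorescent antibodies. The 16 libraries carried 6 pairs of Notch1 alleles. These were 12/- (3 libraries), 12/vg (1 library), +/12, +/-, +/vg and +/+ (3 libraries each). The + allele is wild type and the - allele is null. The vg allele carries a substitution of valine by glycine that leaves the released intracellular domain less stable. In the 12 allele the intracellular domain of Notch2 stands in for that of Notch1. The labels give endothelial development as impaired in 12/-, as partly impaired in 12/vg, and as normal in the other 4 genotypes, which are called normal here. They do not state the mouse strain or how many embryos went into a library, so the p-values here reflect how far libraries of 1 genotype differ, whether from biology or from handling.

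In an endothelial sheet, VE-cadherin (the product of Cdh5) joins neighbouring cells at adherens junctions, while claudin-5 and ESAM lie at tight junctions and PECAM-1 spreads along the whole contact. The angiopoietin receptor TEK, also called TIE2, and its partner TIE1 act in vessel growth and stability. Notch1 signalling between endothelial cells takes part in arterial fate and sprouting in the early embryo, and the comparisons ask how the dose and kind of Notch1 intracellular domain bear on these genes.

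Levels are FPKM, fragments scaled to transcript length and library size, divided by 1 scale factor per library, and differences are log2 values of scaled FPKM + 1. Pearson's r between library profiles, taken across genes and hence not over independent replicates, was 0.874 to 0.926 between libraries of 1 genotype and 0.861 to 0.933 between genotypes, and no pair was a duplicate. The aligned sequence was 0.189 gigabases in 1 +/- library (replicate 2) and 0.262 in the 12/vg library, against 1.11 to 1.80 in the other 14. These 2 are called shallow, and +/- replicate 2 stood apart for several of the 10 genes. A library number in the file names lay in a low range for 9 libraries and a high range for 7. All 12/-, 12/vg and +/12 libraries were low and all +/+ libraries high, so that range and genotype cannot be told apart between 12/- and +/+ except through +/- and +/vg, which had 1 low library each.

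All 10 genes were expressed at high levels in every library. Mean scaled FPKM over the 16 libraries was 204 for Egfl7, 203 for Emcn, 182 for Cdh5, 148 for Cd34 and 122 for Icam2. It was 75.8 for Cldn5, 60.01 for Pecam1, 51.3 for Esam, 38.1 for Tie1 and 31.4 for Tek. These are levels per length, and each gene stood above at least 86.8% of the 10550 genes tested. Within libraries the order varied little at the bottom: Tek ranked 9 or 10 among the 10 genes and Tie1 8 to 10. Egfl7, Emcn, Cdh5, Cd34 and Icam2 took ranks 1 to 5 in all libraries. Across libraries the highest value was 1.41 times the lowest for Emcn and 2.92 times for Icam2.

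**Figure D1:**
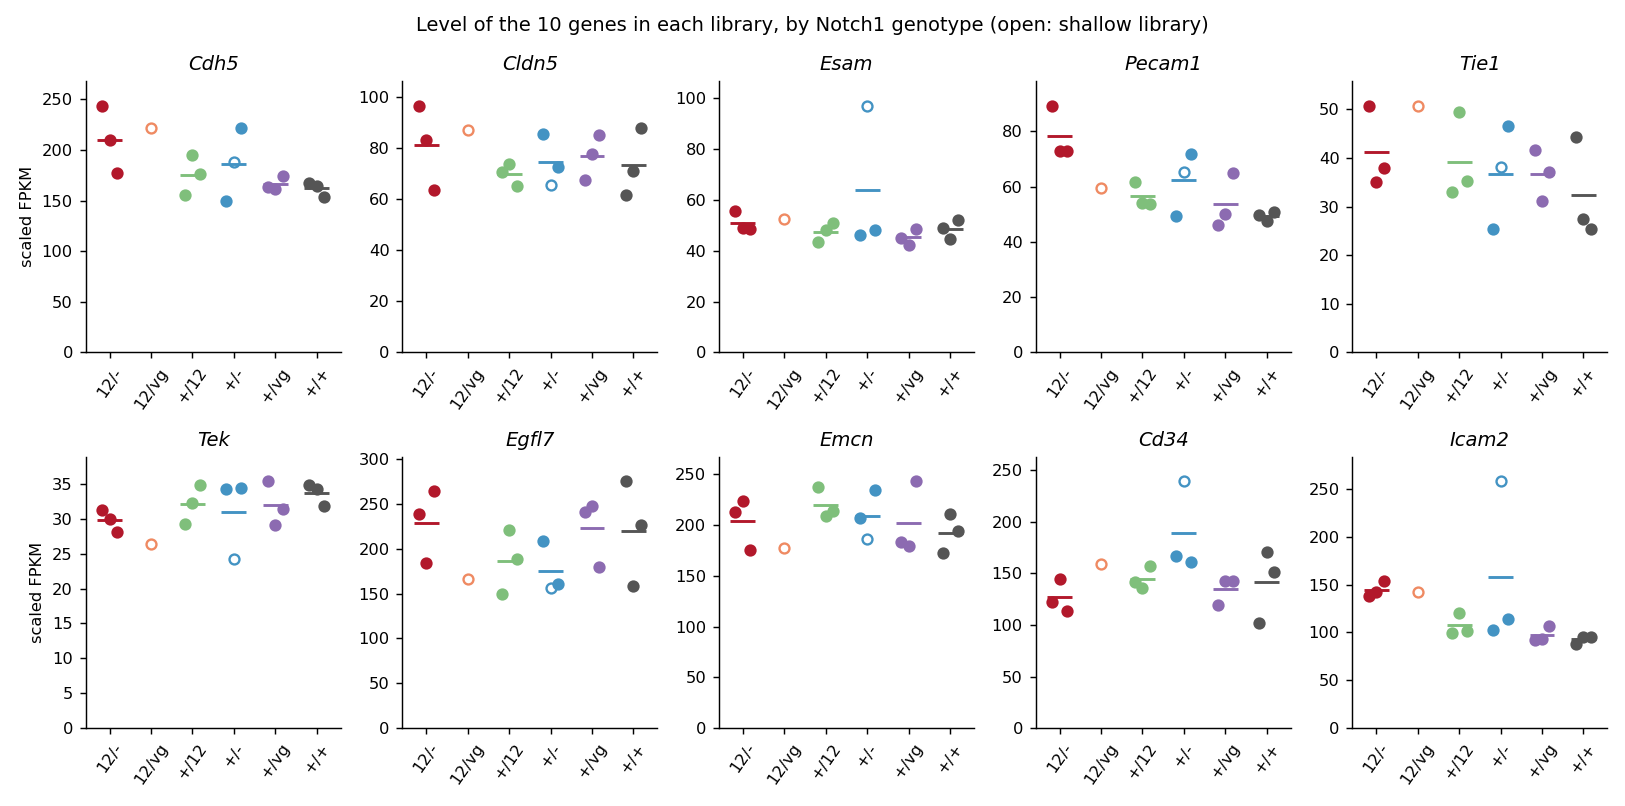
Level of each of the 10 genes (vertical axis, scaled FPKM, from 0) in the 6 Notch1 genotypes (horizontal axis); points are libraries, bars are means of 3 libraries, and open points are the 2 shallow libraries. The 3 Pecam1 points of 12/-, from 72.7 to 89.3, lie above all 12 points of the normal genotypes, and the open +/- point stands apart for Icam2 at 257.7, Esam at 97.0 and Cd34 at 238.8.

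None of the 10 genes passed an adjusted p of 0.05 by limma in any comparison, against 0.787% of all tested genes for 12/- against the mean of the normal genotypes. The shares of all genes were 0.209% for 12/- against +/12, 0.569% against +/-, 0.445% against +/vg and 0.607% against +/+. For 12/vg they were 0.0664% against +/12 and 0.332% against the normal mean, and 0.00% for each of +/12, +/- and +/vg against +/+. At an unadjusted p under 0.05, 1 of the 10 genes passed for 12/- against +/12 (Pecam1), 1 against +/- (Cd34), 2 against +/vg (Pecam1 and Icam2) and 3 against +/+ (Cdh5, Pecam1 and Icam2). The shares of all genes there were 5.29%, 11.7%, 10.0% and 12.2%, in the same order of comparisons. Against the normal mean 2 of 10 did (Cdh5 and Pecam1), beside 11.5% of all genes, and Icam2 alone passed for +/- against +/+, beside 7.51%. Without +/- replicate 2, neither Cd34 in 12/- against +/- nor Icam2 in +/- against +/+ passed, and the log2 difference of Icam2 was 0.22 there, against 0.63 with that library. None passed for +/12 or +/vg against +/+, beside 5.37% and 7.52%, or for 12/vg against +/12 or the normal mean, beside 14.9% and 18.3%. The median difference of the 10 genes for 12/- against the normal mean was 0.16 on the log2 scale, with 7 of 10 positive, against a median near 0 (-0.0048) and 49.1% positive over all tested genes. Without 12/- replicate 1 the median of the 10 genes was 0.02, with 5 of 10 positive.

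Among the junction genes, Pecam1 lay furthest from the normal genotypes. Pecam1 (mm9 chromosome 11, 106515532 to 106576595) encodes CD31, an adhesion protein of the cell contact and the antigen on which the cells were sorted, so its level is not independent of the sort. It had 89.3, 73.0 and 72.7 scaled FPKM in the 3 12/- libraries and 59.6 in the 12/vg library, against 46.1 to 71.9 with a median of 52.3 in the 12 normal libraries. All 3 12/- libraries were above all 12 normal ones, as they were for 1.91% of all tested genes, and Pecam1 was the 1 gene of the 10 with that pattern. None of the 10 lay below all 12 normal libraries in 12/-, as 0.929% of all tested genes did. Means were 78.3 ± 9.48 in 12/-, 56.5 ± 4.60 in +/12, 62.2 ± 11.5 in +/-, 53.7 ± 10.0 in +/vg and 49.4 ± 1.71 in +/+ (SD, n = 3 each). By limma over all 16 libraries the log2 difference of 12/- from the normal mean was 0.50 ± 0.13 (SE; 95% interval 0.23 to 0.77), with an adjusted p of 0.107. It was 0.46 ± 0.16 against +/12 (adjusted p = 0.680) and 0.65 ± 0.16 against +/+ (adjusted p = 0.107). Pecam1 did not pass the F test of limma over the 6 genotypes (F = 3.95, adjusted p = 0.298), nor did the other 9 genes, against 0.351% of all genes called. It was the 1 gene of the 10 with an unadjusted p under 0.05 there (0.0217), beside 13.5% of all genes.

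Among the deep normal libraries, Pecam1 also differed between the ranges of library numbers. The 5 normal libraries of the low range had 53.7 to 71.9 scaled FPKM (mean 61.3), and the 6 deep normal libraries of the high range had 46.1 to 50.9 (mean 49.0). With the range in the model the difference of 12/- from the normal mean was 0.28 ± 0.13 (adjusted p = 0.672) and that from +/+ was 0.27 ± 0.19 (adjusted p = 0.854). The difference from +/12, where both genotypes lie in the low range, was 0.46 either way. In sorted cells pooled into a library, fewer cells of a type and less RNA per cell cannot be told apart.

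Cdh5 (chromosome 8, 106625525 to 106668402) encodes VE-cadherin, the adhesion molecule of endothelial adherens junctions. Its 12/- libraries had 243.6, 209.5 and 176.9 scaled FPKM and the 12/vg library 221.6, against 149.1 to 221.4 with a median of 166.1 in the 12 normal libraries. The 12/- libraries lay above 9 of the 12 normal ones and overlapped the rest, while all 3 were above the +/+ libraries (153.7 to 167.4). The log2 difference of 12/- was 0.28 ± 0.12 from the normal mean (95% interval 0.02 to 0.54, adjusted p = 0.397) and 0.36 ± 0.15 from +/+ (adjusted p = 0.373) by limma. With the range of library numbers in the model these were 0.13 ± 0.14 and 0.11 ± 0.21, with adjusted p of 0.925 and 0.956. Without 12/- replicate 1 the difference of Cdh5 from the normal mean was 0.17 (adjusted p = 0.933).

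Cldn5 (chromosome 16, 18776940 to 18778355), the main claudin of endothelial tight junctions, and Esam (chromosome 9, 37335674 to 37345904), an immunoglobulin-type protein of the same junctions, differed less. Cldn5 averaged 80.9 ± 16.6 scaled FPKM in 12/-, against 69.8 ± 4.21 in +/12, 74.4 ± 10.1 in +/-, 76.6 ± 8.82 in +/vg and 73.4 ± 13.2 in +/+ (SD, n = 3 each), with 87.1 in the 12/vg library. The groups overlapped, and the interval of the log2 difference of 12/- from the normal mean was -0.17 to 0.42. Esam averaged 51.0 ± 3.90 in 12/- and 48.5 ± 3.67 in +/+, and it averaged 63.8 ± 28.8 in +/-, where the shallow replicate 2 had 97.0 and the others 46.1 and 48.3. The interval for Esam was -0.35 to 0.40 with that library and -0.06 to 0.28 without it.

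The receptors were the lowest of the 10 genes. Tek (chromosome 4, 94405991 to 94541630), the receptor of the angiopoietins, had 31.3, 30.0 and 28.1 scaled FPKM in 12/-, 26.4 in 12/vg, and 34.8, 34.3 and 31.8 in +/+. The 12/- libraries were all below the +/+ libraries, as for 9.46% of all tested genes, but not below those of the other normal genotypes. The log2 difference of 12/- from +/+ was -0.17 ± 0.14 (adjusted p = 0.650). Tie1 (chromosome 4, 118143796 to 118162454), which encodes the related receptor without a well-established ligand of its own, varied more within genotypes, with 25.3 to 44.4 in +/+ and 35.1 to 50.8 in 12/-. Its difference of 12/- from the normal mean was 0.20 ± 0.20 (95% interval -0.24 to 0.64, adjusted p = 0.766), 0.02 with the range of library numbers in the model, and 0.04 without 12/- replicate 1.

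Icam2 (chromosome 11, 106238970 to 106243955) encodes a cell-adhesion ligand of leukocyte integrins that is constitutive on endothelium, and its result turned on 1 library. It had 138.1, 142.1 and 153.8 scaled FPKM in the 12/- libraries and 142.7 in the 12/vg library. The +/12 libraries had 99.6 to 120.7, the +/vg libraries 91.9 to 106.8 and the +/+ libraries 88.4 to 95.7. In +/- the values were 102.9 and 114.1, with 257.7 in the shallow replicate 2. The 12/- libraries and the 12/vg library were thus above 11 of the 12 normal libraries and below the shallow one. With all 16 libraries the log2 difference of 12/- from the normal mean was 0.41 ± 0.20 (95% interval -0.03 to 0.84, adjusted p = 0.472).

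Without +/- replicate 2, Icam2 passed in 12/- against the normal mean, at a log2 difference of 0.51 ± 0.082 (95% interval 0.33 to 0.69, adjusted p = 0.00918). In that setting 139 of 10550 tested genes passed for the same comparison, against 83 with all libraries. Icam2 also passed against +/+ (0.63 ± 0.10, adjusted p = 0.0134) and against +/vg (0.57 ± 0.10, adjusted p = 0.0266), but not against +/12 (0.43 ± 0.10, adjusted p = 0.161) or +/- (0.41 ± 0.11, adjusted p = 0.214). The 12/vg library differed from the normal mean by 0.50 there (adjusted p = 0.0424), and it is assumed to vary like the other groups. Within the low range of library numbers, Icam2 was 138.1 to 153.8 in 12/- and 99.6 to 120.7 in the 5 normal libraries, and the 6 deep normal libraries of the high range had 88.4 to 102.9. With the range in the model and all 16 libraries, none of the 10 genes passed in 12/- against the normal mean. Over 29 alternatives, that fit among them, the Icam2 difference ran from 0.33 to 0.51, with adjusted p of 0.00918 to 0.849 by limma. With both shallow libraries left out and the range in the model, a setting chosen after seeing the data, the difference of Icam2 in 12/- from the normal mean was 0.41 ± 0.094 (adjusted p = 0.110).

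**Figure D2:**
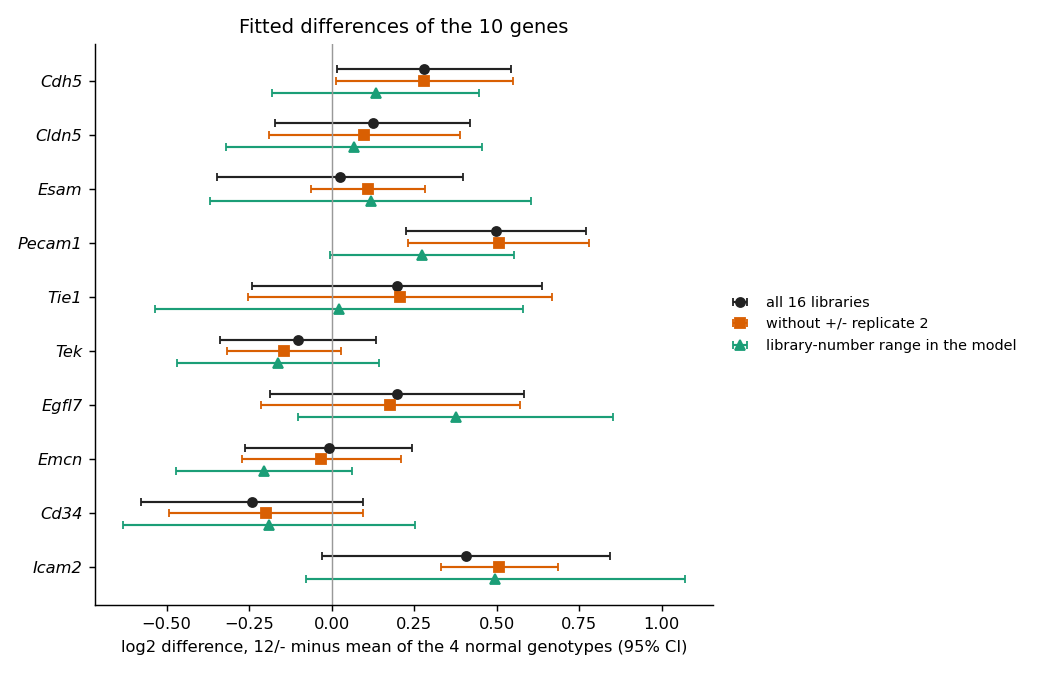
Log2 difference of 12/- from the mean of the 4 normal genotypes for each of the 10 genes (points, with 95% intervals as bars), fitted with all 16 libraries, without +/- replicate 2, and with the range of library numbers in the model. Leaving out the 1 shallow library narrows the interval of Icam2 to 0.33 to 0.69, and the term for the range moves Pecam1 to 0.28.

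Neither of the sialomucins, the remaining surface glycoproteins, passed in any comparison. Cd34 (chromosome 1, 196765015 to 196787486), a sialomucin of endothelial and blood progenitor cells, had 144.3, 122.4 and 113.7 scaled FPKM in 12/- libraries, against 167.0, 160.8 and, in the shallow replicate 2, 238.8 in +/-. The 12/- libraries were all below those of +/-, as for 6.41% of all tested genes, and the log2 difference was -0.56 ± 0.20 (95% interval -0.98 to -0.13, adjusted p = 0.296). Without +/- replicate 2 it was -0.38 ± 0.19 (adjusted p = 0.559). The difference made by the null allele beside the 12 allele (12/- against +/12) minus that beside the + allele (+/- against +/+) was -0.62 ± 0.28 for Cd34 (interaction test of limma, adjusted p = 0.752). None of the 10 genes passed that test, against 0.0474% of all genes, and Cd34 was the 1 with an unadjusted p under 0.05 (0.0452), beside 6.56% of all genes. Without +/- replicate 2 the Cd34 value was -0.44 ± 0.25 (adjusted p = 0.842). Emcn (chromosome 3, 137004042 to 137094033), a sialomucin of venous and capillary endothelium in the adult, had the lowest ratio of highest to lowest library of the 10. It averaged 204.0 ± 25.1 in 12/- and 192.0 ± 19.4 in +/+ (SD, n = 3 each), and the difference of 12/- from the normal mean had an interval of -0.26 to 0.24. The estimate was -0.0095 with all libraries and -0.21 with the range of library numbers in the model.

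Egfl7 (chromosome 2, 26436576 to 26448202) encodes a secreted protein of endothelial cells that binds the matrix and has been linked to Notch signalling, and its locus also holds the gene of the endothelial microRNA miR-126. It had 238.5, 184.4 and 264.3 scaled FPKM in 12/-, 166.0 in 12/vg, and 275.0, 158.6 and 225.9 in +/+. The genotypes overlapped, with a log2 difference of 12/- from the normal mean of 0.20 ± 0.18 (95% interval -0.19 to 0.58, adjusted p = 0.715). Egfl7 and Cd34 were the 2 of the 10 genes whose loci overlap another annotated gene, so their reads could have been shared. The microRNA gene itself, 73 nt long, was listed at 0 in 8 of 16 libraries and reached 231 scaled FPKM in 1 12/- library. So short a transcript is poorly measured by this assay, and its values are not compared. Its mature 3p strand, from RefSeq on GRCm38.p6 (chr2:26591402-26591423, plus strand), is shown with bases 2 to 8, the seed, in capitals because it is a known product of the Egfl7 locus.
miR-126a-3p: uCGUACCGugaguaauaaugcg

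Egfl7 had 4 transcripts from several starts, and its estimated FPKM came mostly from 1 of them. The shortest transcript, NM_001164564 (1164 nt), made up a median of 80.8% of the FPKM of the gene, and 76.8% to 90.3% in the 14 deep libraries. In 12/- its share was 79.5%, 81.0% and 81.5%, and in +/+ 83.6%, 83.6% and 87.8%. The shallow libraries stood apart, at 49.0% in 12/vg and 40.3% in +/- replicate 2. NM_198724 and NM_198725 made up medians of 14.0% and 5.05%, and NM_178444 0.0951%. Shares within a gene are estimates that assign reads between overlapping transcripts, and no error of these shares was used here.

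The starts of these transcripts in GENCODE's GRCm38 annotation lay within 27 bases of 3 RefSeq gene starts, and a promoter window ran from 250 bases before to 50 after each. They are shown on the plus strand of GRCm38.p6 because the transcript shares set these starts apart; capitals mark AGGAAG, a form of the ETS motif found at many endothelial genes, or its reverse complement.
Egfl7 upstream start, NM_178444 (chr2:26580833-26581132): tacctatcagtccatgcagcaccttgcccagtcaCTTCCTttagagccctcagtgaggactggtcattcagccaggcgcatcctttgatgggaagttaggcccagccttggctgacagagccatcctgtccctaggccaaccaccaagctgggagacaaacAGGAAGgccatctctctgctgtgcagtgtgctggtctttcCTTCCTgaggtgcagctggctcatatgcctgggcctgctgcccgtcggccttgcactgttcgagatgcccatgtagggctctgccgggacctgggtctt
Egfl7 middle start, NM_198724 and NM_198725 (chr2:26583615-26583914): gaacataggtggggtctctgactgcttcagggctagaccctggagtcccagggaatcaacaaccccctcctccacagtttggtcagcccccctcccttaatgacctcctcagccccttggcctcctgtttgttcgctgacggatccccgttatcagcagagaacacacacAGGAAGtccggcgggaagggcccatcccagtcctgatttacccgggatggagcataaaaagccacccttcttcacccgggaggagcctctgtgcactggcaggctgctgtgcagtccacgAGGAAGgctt
Egfl7 downstream start, NM_001164564 (chr2:26586386-26586685): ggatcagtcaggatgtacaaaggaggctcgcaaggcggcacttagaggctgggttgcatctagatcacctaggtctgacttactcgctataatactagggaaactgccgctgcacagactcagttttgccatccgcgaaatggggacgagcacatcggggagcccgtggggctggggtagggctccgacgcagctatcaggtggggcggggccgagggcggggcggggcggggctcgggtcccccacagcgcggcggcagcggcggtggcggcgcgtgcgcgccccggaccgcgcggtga
The downstream window, at the start of the transcript with the largest median estimated share, held no AGGAAG on either strand. The upstream window held 3 and the middle one 2. The downstream window had 67.3% G or C and 31 CG dinucleotides, against 58.3% and 5 in the upstream window, 59.0% and 8 in the middle one, and medians of 52.7% and 7 over 32851 mouse promoter windows. Windows were found for 6 of the 10 genes, 8 windows in all, and AGGAAG occurred in 5 of them and in windows of 4 genes (Cd34, Egfl7, Emcn and Tie1), against 35.4% of all windows. CCGGAA, another ETS form, occurred in none of the 8 and in 14.9% of all windows. AGATAA, the GATA motif, occurred in the window of Tek alone and in 11.2% of all, and TGTTTAC, a forkhead motif, in none of the 8 and in 3.65% of all. AGGAAG and CCGGAA can share only an end letter. A match describes the letters of the window and nothing about a factor.

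Pecam1, Emcn and Cd34 had 2 transcripts each and the other 6 genes 1. The Pecam1 transcript NM_001032378 took 45.3%, 61.4% and 63.2% of the FPKM of the gene in 12/- and 49.0% to 74.3% in +/+, so that the genotypes overlapped. In the shallow 12/vg library it took 34.3%. The Emcn transcript NM_001163522 took a median of 77.6% and the Cd34 transcript NM_133654 a median of 53.5%, with 74.6% and 82.3% for Cd34 in the shallow libraries 12/vg and +/- replicate 2.

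**Figure D3:**
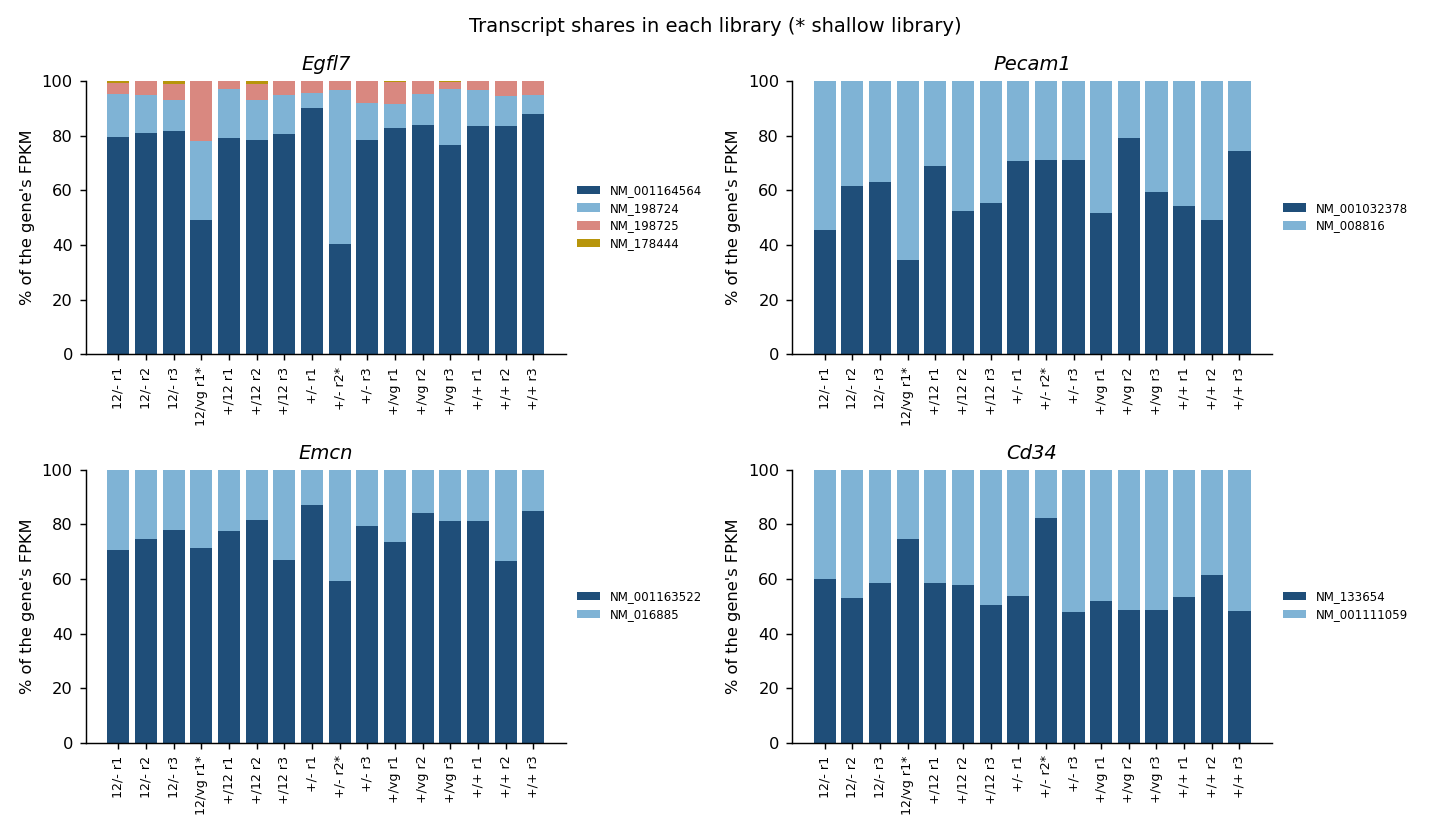
Share of the FPKM of a gene (vertical axis, percent) assigned to each RefSeq transcript of Egfl7, Pecam1, Emcn and Cd34 in each of the 16 libraries (horizontal axis; an asterisk marks a shallow library). The main Egfl7 transcript takes at least 76.8% in the 14 deep libraries and 49.0% and 40.3% in the 2 shallow ones.

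Library values of the compared genotypes did not overlap for a few of the 10 genes. In 12/- against +/12 these were Pecam1 and Icam2, both higher, where 7.93% of all genes were higher in that way and 6.84% lower. Against +/-, Pecam1 was higher (7.74% of all genes) and Cd34 lower. Against +/vg, Cdh5, Esam, Pecam1 and Icam2 were higher (10.2% of all genes) and none lower (10.5%), and against +/+ Cdh5, Pecam1 and Icam2 were higher (10.4% of all genes) and Tek lower. Among the normal genotypes, +/12 was higher than +/+ for Pecam1 and Icam2 (6.60% of all genes) and lower for none (5.97%). In +/-, Icam2 was higher than in +/+ (4.02% of all genes) and none was lower (3.77%). None of the 10 was set apart in +/vg against +/+, where 7.30% of all genes were higher and 6.28% lower. These comparisons share libraries.

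The 10 genes did not vary as 1 block across libraries. Of their 45 pairs, 23 had a positive Pearson's r over the 16 libraries, with a median of 0.02 and a range from -0.78 to 0.84, and the median of deviations within genotypes was 0.16. Over the 14 deep libraries 28 pairs were positive, with a median of 0.18. Over all pairs of tested genes the median was -3.02e-05 over the 16 libraries and 0 within genotypes. In 5 pairs r passed a permutation test adjusted over the 45 pairs, and in 3 of these Spearman's rho passed as well. The permutations were added after the results were seen and ignore the genotypes, so a shift that 2 genes share in a genotype counts towards r. In another 2 pairs, Cdh5 with Icam2 and Pecam1 with Icam2, rho passed and r did not. Cdh5 and Tie1 had r = 0.77 (permutation p = 0.00068, adjusted 0.0102) and rho = 0.80 (p = 0.00042, adjusted 0.0130), and r was 0.66 without the 2 libraries furthest from the median of Cdh5. Cdh5 and Pecam1 had r = 0.74 (permutation p = 0.00108, adjusted 0.0121) and rho = 0.71 (p = 0.00291, adjusted 0.0327), with r = 0.68 without those 2 libraries. Within genotypes r was 0.76 for Cdh5 with Tie1 and 0.60 for Cdh5 with Pecam1. Within the low and the high range of library numbers (9 and 7 libraries) it was 0.79 and 0.63 for Cdh5 with Tie1, and 0.52 and 0.73 for Cdh5 with Pecam1.

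Egfl7 and Cd34 moved in opposite ways, with r = -0.74 (permutation p = 0.0004, adjusted 0.0102) and rho = -0.70 (p = 0.00389, adjusted 0.0350), r = -0.60 without the 2 libraries furthest from the median of Egfl7, and r = -0.67 within genotypes. It was -0.84 in the low and -0.88 in the high range of library numbers. Egfl7 and Emcn had r = -0.58 (permutation p = 0.0211, adjusted 0.121) and rho = -0.61 over 16 libraries, and r = -0.86 over the 14 deep ones, chosen by depth. The other pairs past the threshold rested on the shallow libraries. Esam with Icam2 had r = 0.84 over 16 libraries (adjusted permutation p = 0.0140) and 0.46 over the 14 deep ones, and Tek with Icam2 had r = -0.78 (adjusted permutation p = 0.0102) and -0.52. Pecam1 with Icam2 had r = 0.60 over 16 libraries (adjusted permutation p = 0.0883), rho = 0.78 (adjusted permutation p = 0.0130) and r = 0.83 over the 14 deep libraries. Within genotypes r was 0.26 for that pair, and without the 2 libraries furthest from the median of Pecam1 it was 0.61.

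**Figure D4:**
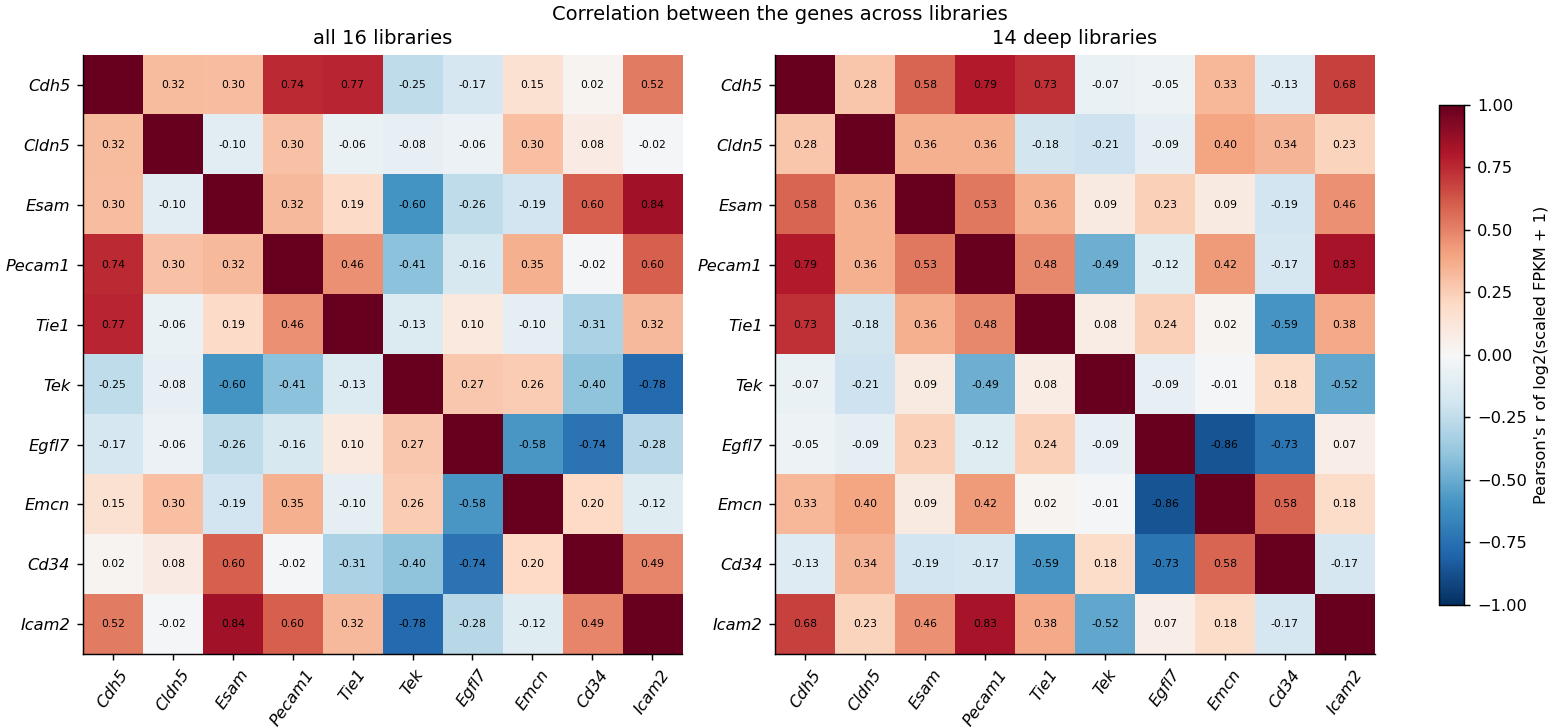
Pearson's r between each pair of the 10 genes across all 16 libraries (left) and across the 14 deep libraries (right), on log2(scaled FPKM + 1), with r printed in each cell and coloured from -1 (blue) to 1 (red). Cdh5, Pecam1 and Tie1 are positive with each other in both panels, Egfl7 is negative with Cd34 and Emcn in both, and Esam with Icam2 falls to 0.46 in the right panel, against 0.84 in the left.

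The genes most like Pecam1 over the 16 libraries by Pearson's r were Col4a2 (0.91), Maged1 (0.90), Plod1, Cav1 and Itm2b (0.88 each). Those most like Cdh5 were Cul7 (0.88), Nes, Tspan9 (0.87 each), Coro2b and Phldb1 (0.86 each). Those most like Cldn5 reached lower values, with Mir3112 at 0.77, Fermt2 at 0.76, Wdr11 at 0.75, Snhg10 at 0.75 and Sympk at 0.74. Mir3112 is a short microRNA gene, whose values have little precision. Left out of this ranking were the genes followed here, symbols of the Gm-number and Rik types, and sex-specific genes such as Xist and Uty. The genes named are the highest of the other tested genes, so their values describe a ranking and carry no test.

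Other genes of the same biology were followed as lists. These lists were chosen with earlier results of these data known. Of 34 other pan-endothelial genes, 30 had a positive difference of 12/- from the normal mean, with a median log2 difference of 0.30, beside 0.16 for the 10 genes and -0.0048 over all tested genes. Over all tested genes 49.1% were positive and 0.787% passed. Without 12/- replicate 1 the medians were 0.18 for the 34 genes, with 28 positive, and 0.02 for the 10 genes, beside 48.9% positive over all tested genes. Among the 34, 3 passed by limma and were higher in 12/-: Eltd1, an adhesion-type receptor also known as ADGRL4 (0.70 ± 0.11, adjusted p = 0.00575), Flt1, a VEGF receptor (0.75 ± 0.12, adjusted p = 0.00706), and Clec14a, a C-type lectin of endothelium (0.73 ± 0.13, adjusted p = 0.0152). This count was 0 without 12/- replicate 1, 0 without 12/- replicate 2, 0 with the range of library numbers in the model, and 1 with a constant FPKM sum. With the range in the model the median was 0.17, with 28 of 34 positive, beside 49.0% of all tested genes. Against +/12, where the ranges match, none of the 34 passed, beside 0.209% of all tested genes, with 30 positive and a median of 0.28.

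Of 38 tested genes for partners of the junction proteins, such as the catenins, 16 had a positive difference and none passed, with a median of -0.02. None of 9 tested genes of the TIE receptor and angiopoietin system passed, with a median of -0.06, and none of 14 sialomucin and adhesion genes, with a median of 0.10. In the other comparisons of 12/- these 3 lists had no called gene either.

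**Figure D5:**
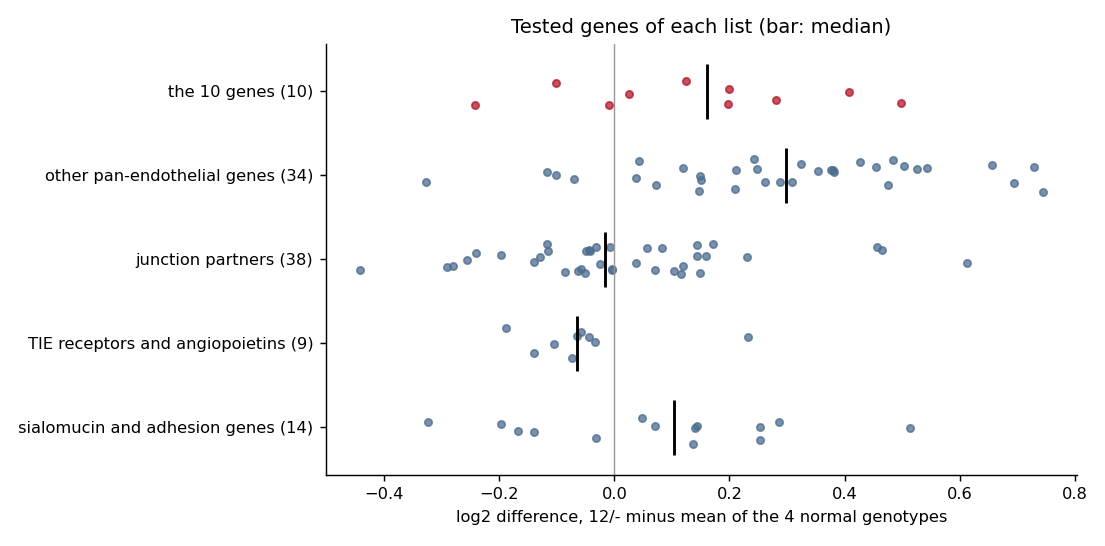
Log2 difference of 12/- from the mean of the 4 normal genotypes (horizontal axis) for each tested gene of 5 lists (rows, number of genes in brackets); points are genes, spread vertically at random, and bars are medians. The other pan-endothelial genes have the highest median, 0.30, and the junction partners lie around 0, with a median of -0.02.

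Markers of cells that a CD31 sort can also hold were summed beside these values. The megakaryocyte and platelet list, whose cells also carry CD31, had all 12 genes above a mean FPKM of 1, and Pf4 was its highest at a mean of 779. Its summed level was 402, 787 and 1608 in the 12/- libraries, in the order of the Pecam1 values 89.3, 73.0 and 72.7, against 269 to 2079 in the 12 normal libraries, so that the groups overlapped. Normal sums of the low range were 1537 in +/vg, 2079, 593 and 1164 in +/12 and 1001 in +/-, and those of the high range 269 to 876. Against +/+, all 12 genes were positive in 12/- (median log2 difference 0.655) and in +/12 (1.02). In 12/- against +/12, 1 of 12 was positive (median -0.372). Against the normal mean it was 7 of 12 (0.146), beside 49.1% of all tested genes. The primitive erythroid sum was 83.8 to 340.0 in 12/-, 26.4 in 12/vg and 97.2 to 243.4 in the normal libraries. In the 1 12/vg library, which is shallow, Hbb-y, an embryonic globin, was lower than in the normal mean (log2 difference -4.14). With 1 library the spread within that genotype is not measured. In the comparisons of 12/- no gene of the cell-type lists was called. The leukocyte sum was 28.2 to 36.7 in 12/- and 20.7 to 45.7 in the normal libraries, with 10 of 15 genes under a mean FPKM of 1 and 6, Ptprc among them, at 0 in at least 8 libraries. The mesenchymal sum was 22.6 to 41.6 in 12/- and 25.4 to 57.6 in the normal libraries, with 10 of 17 genes under a mean of 1. The cardiomyocyte sum was 31.5 to 39.3 in 12/- and 17.3 to 86.6 in the normal libraries, over 17 genes (Tnnt2 was left out for its status), with 8 of 17 under a mean of 1 and Nkx2-5 at 0 in at least 8 libraries. The neural sum was 27.6 to 39.6 in 12/- and 20.3 to 39.7 in the normal libraries, and 12 of its 13 genes had a mean under 1. It came mostly from Nes, with a mean of 26.4, while the next gene, Tubb3, had 0.775. Nes was also among the genes most like Cdh5 (r = 0.87), so this sum does not stand for neural cells alone. Epithelial markers summed to 22.7 to 44.0 in 12/- and 9.12 to 75.4 in the normal libraries, and markers of blood progenitors to 62.2 to 88.5 in 12/- and 56.8 to 88.1 in the normal libraries. No list had a gene at 0 in all libraries. The part of these cells in the levels of the 10 genes was not tested.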

How the data were processed

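RNA was measured in 16 libraries of sorted endothelial cells of 6 Notch1 genotypes. Each deposited table lists FPKM, coverage and a status for 28107 RefSeq transcripts of 1 library, per the file headers. The submitters' processing notes name TopHat2 2.0.9 and the mm9 build. The file names carry the word cufflinks. Not given in the sources used here are the version and settings with which FPKM was computed, the read length and the strand. The deposited coverage signal, divided by FPKM, is 1 constant per library, which gives the aligned gigabases. FPKM values are not counts, so no count test or counting interval was used.

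Transcript FPKM values were summed per symbol with Python 3.11.15 and pandas 2.3.3, and 211 symbols with a status other than OK were left out. Libraries were divided by median-ratio factors (0.850 to 1.13, over 8610 genes), and log2(scaled FPKM + 1) was fitted in R 4.3.3 with limma 3.58.1 (trend, 6 group means, 10 residual degrees of freedom, two-sided). Testing was limited to genes whose mean FPKM reached 1, and p-values were adjusted over all 10550 by the Benjamini-Hochberg method. A fold change on this scale understates the change of low genes. Correlations were tested with 100000 permutations of the libraries (two-sided), which were added after the results were seen and which ignore the genotypes.

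The 10 genes and the lists were chosen with earlier results of these data known. Named beside them are up to 4 called genes per list and the 5 ranked genes most like Pecam1, Cdh5 and Cldn5. The 2 spellings of the wild type in the labels were taken as 1 genotype, and replicate numbers follow the order of the samples. Alternatives were other scalings, pseudocounts, filters, moderation and weights, a term for the library-number range, and leaving out libraries. The fit was also run on simulated data, whose outcome is not given here and on which no result rests. Their noise had the same spread in all libraries of a gene, shallow ones included.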

Additional observations from a re-analysis of the deposited data

How the results depend on the processing

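Called genes among the 10 were 0 in all 12 tests as reported. For 12/- against +/+ the count was 1 with the compared groups fitted alone and 1 without the shallow libraries. For 12/- against +/vg it was 1 without the shallow libraries. For 12/- against the normal mean it was 2 with array weights (Pecam1 and Icam2, adjusted p of 0.0320 and 0.0473 by limma) and 1 without the shallow libraries. Leaving out 1 library at a time gave counts of 0 to 1 in those 3 comparisons, in 12/vg against the normal mean and in the test of any difference over the 6 genotypes. In all 5 the count of 1 came without +/- replicate 2, and the gene was Icam2. The adjusted p of Icam2 for 12/- against the normal mean ran from 0.00918 to 0.849 over 29 alternatives, and that of Pecam1 from 0.0320 to 0.672, with a log2 difference between 0.25 and 0.58. Over all tested genes, 83 were called for that comparison, 27 without 12/- replicate 1, 39 without 12/- replicate 2, 47 with the range of library numbers in the model, 139 without +/- replicate 2 and 249 with array weights. For the other comparisons the counts over all genes in these settings are not given here. Their counts of 1 among the 10 genes therefore have no background beside them.

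No paired analysis was possible because the replicate numbers only follow the order of the samples and tie no library to another. The median of all genes was 0.06 with no scaling and -0.07 with a constant FPKM sum for 12/- against the normal mean, and the median of the 10 genes was 0.24 and 0.09 there. With 3 libraries per genotype, a standard error of 0.13 to 0.26 for Pecam1, Tie1 and Icam2 in the comparisons of 12/- limits what differences could pass, and with 1 library of 12/vg it was 0.20 to 0.36. Shallow libraries give transcript shares the least precision.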

Other observations

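The ratio of Tie1 to Tek, both in FPKM per length, was 1.38 ± 0.23 in 12/- and 1.92 in the 12/vg library, against 1.22 ± 0.28 in +/12, 1.23 ± 0.43 in +/-, 1.14 ± 0.063 in +/vg and 0.956 ± 0.28 in +/+ (SD, n = 3 each). The genotypes overlapped, since 12/- ran from 1.17 to 1.62 and +/+ from 0.796 to 1.27. Pecam1 relative to Cdh5 was 0.375 ± 0.032 in 12/- and 0.269 in the 12/vg library, against 0.327 ± 0.064 in +/12, 0.335 ± 0.012 in +/-, 0.322 ± 0.047 in +/vg and 0.306 ± 0.022 in +/+. The 12/- libraries, from 0.348 to 0.411, overlapped those of +/12 (0.278 to 0.399) and +/vg (0.283 to 0.373), met those of +/- (up to 0.348) and lay above those of +/+ (up to 0.331). No test was made of these ratios.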
